A study of Mus musculus with 4 samples.

Results

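The genes described are 10 transcription regulators of the GATA and TAL1 network: Gata1, Gata2, Gata3, Gata4, Gata6, Tal1, Lyl1, Lmo2, Zfpm1 and Gfi1b. They were taken by symbol from the authors' deposited comparison, with the transcripts of a symbol summed, and make up 10 of its 16545 symbols and 11 of its 18061 transcripts. They were chosen by the OHT and EtOH means of these same samples. The differences between those means are therefore given as a description, with no test of the genes as a group.

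GATA factors are zinc-finger proteins that bind DNA at the word GATA. In blood cells GATA1 and GATA2 work with TAL1, a basic helix-loop-helix factor, and with the bridging proteins LMO2 and LDB1, in complexes that drive stem cell, red cell, platelet and mast cell genes. LYL1 is the closest relative of TAL1, Zfpm1 encodes the GATA cofactor FOG1, and Gfi1b encodes a repressor induced by these complexes. GATA3 is the GATA factor of T cells and type 2 lymphoid cells, while GATA4 and GATA6 belong to heart and endoderm.

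The samples were mouse C57BL/6 MLL-AF9 leukaemic cells, a myeloid leukaemia taken from bone marrow and grown in liquid culture. All carried the genotype Ring1a-/-, Ring1bf/f, Cdkn2a-/-. In one group cells received EtOH for 72 h (ethanol, 2 samples) and in the other OHT for 72 h (2 samples). OHT commonly denotes hydroxytamoxifen, which activates recombinases fused to a receptor domain so that they delete floxed alleles, here Ring1b, an enzyme of Polycomb repressive complex 1 (PRC1). PRC1 marks histone H2A at silenced genes, and the series title names the question, whether its activity maintains leukaemic cell identity. The labels name no recombinase. Cells lacking the floxed allele but given OHT are not analysed here, so OHT itself and the deletion cannot be told apart. Separate cultures or mice are not stated for the samples within a group, so any p reflects how far these samples differ among themselves, and that spread may be technical.

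The file gives 1 mean per group. Each mean could be solved to the whole reads of its 2 libraries, called A and B, with totals of 3841243 to 6255320 reads. Library A is the one with the larger size factor in each group, and the letters have no tie to the labels' replicate numbers or between groups. Normalised reads are solved reads divided by the size factor of their library. Rnf2, the gene of RING1B, had means of 636 with EtOH and 757 with OHT in the authors' deposited table (adjusted p = 1). The labels do not give the deleted exons, so this count does not check the deletion. All 12 of 12 myeloid markers had reads, and their sum was 5317 and 6566 normalised reads with EtOH and 8339 and 7831 with OHT. In bulk samples, a change in the number of cells of one kind and a change in RNA per cell cannot be told apart.

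Tal1 rose while its relative Lyl1 fell. Tal1 (NM_011527) had 28.2 and 11.7 normalised reads in EtOH libraries A and B and 138 and 275 in OHT libraries A and B. Both OHT libraries lay above both EtOH libraries, and the OHT libraries also differed 1.99-fold from each other. The authors' deposited table lists means of 21.0 and 207 for Tal1, a 9.85-fold rise. The ratio of solved reads, 43 with EtOH and 410 with OHT, was 9.02 with an exact 95% interval of 6.58 to 12.7. Such intervals cover counting error only. With the spread between libraries, limma-voom estimated a log2 fold change of 3.26 ± 0.56 (SE, n = 2 per group). The log2 ratio of the means was 3.30, with a range of 2.72 to 3.99 when each library in turn was left out.

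Lyl1 (NM_008535) had 1308 and 1658 normalised reads with EtOH and 639 and 816 with OHT. All EtOH values lay above all OHT values. In the authors' deposited table the Lyl1 mean fell 2.04-fold, from 1484 to 729. Its read ratio was 0.495 (0.465 to 0.527), and limma-voom gave -1.03 ± 0.22 (SE). Tal1 made up 2.11% of the reads of the pair in EtOH library A (34 of 1611, exact 95% interval 1.47 to 2.94%) and 0.702% in EtOH library B (9 of 1282, 0.322 to 1.33%). It made up 17.7% in OHT library A (15.3 to 20.3%) and 25.2% in OHT library B (22.5 to 28.0%). This share is taken within a library, so no scaling between libraries enters it. The intervals of EtOH and OHT do not overlap, but neither do those of libraries A and B within each group. They cover counting error only and do not measure the spread between libraries. Lyl1 still supplied most reads of the pair with OHT. Tal1 and Lyl1 together came to 1336 and 1669 normalised reads with EtOH and 777 and 1091 with OHT.

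The 250 bases before the annotated starts of these genes are shown for the pair that moved in opposite directions and for Gata3, the rising GATA gene with a known window. Sequences are from RefSeq on GRCm38.p6, a later build than the mm9 of the authors. They read 5′ to 3′ on the strand of the gene, and capitals mark each CG, the dinucleotide whose density is known to go with Polycomb binding at silent genes. The windows are chr4:115056176-115056425 (+) for Tal1, which starts where NM_011527 does, chr8:84701207-84701456 (+) for Lyl1 and chr2:9878601-9878850 (-) for Gata3.
Tal1: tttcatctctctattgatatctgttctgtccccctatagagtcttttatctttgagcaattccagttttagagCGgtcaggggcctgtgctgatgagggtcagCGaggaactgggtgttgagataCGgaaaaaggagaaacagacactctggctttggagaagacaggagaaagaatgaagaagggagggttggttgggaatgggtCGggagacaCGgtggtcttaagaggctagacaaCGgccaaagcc
Lyl1: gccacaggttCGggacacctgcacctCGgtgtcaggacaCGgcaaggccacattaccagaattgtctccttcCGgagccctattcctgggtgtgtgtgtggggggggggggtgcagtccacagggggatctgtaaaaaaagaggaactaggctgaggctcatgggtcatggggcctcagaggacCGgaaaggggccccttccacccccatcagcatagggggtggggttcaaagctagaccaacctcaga
Gata3: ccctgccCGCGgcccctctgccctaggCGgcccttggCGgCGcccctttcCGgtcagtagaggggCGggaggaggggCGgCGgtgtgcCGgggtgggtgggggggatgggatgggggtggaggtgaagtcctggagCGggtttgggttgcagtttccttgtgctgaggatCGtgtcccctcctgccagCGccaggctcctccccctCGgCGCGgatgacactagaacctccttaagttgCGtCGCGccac
These stretches hold 6 CG for Tal1, 5 for Lyl1 and 19 for Gata3. In the full windows, from 250 bases before to 50 after a start, 7 of the 10 genes matched with 9 windows among 32851. The CG count ranged from 4 for Gata1 to 37 for Zfpm1, beside a median of 7 and an upper quartile of 20 over all windows. Gata2 had 32 and 29 at its 2 starts, Gata3 22, and Tal1 11 and 22. Lyl1 and Gfi1b had 7 each. Counts above the upper quartile were found at Gata2, Gata3, Zfpm1 and 1 of the Tal1 windows. Whether the CG count has a part in the changes was not tested.

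The GATA words AGATAA or AGATAG, and likewise TGATAA or TGATAG, were searched on both strands of the same windows. They occurred in 3 of 9 windows, at Tal1 (first base at -205), Gfi1b (-120) and Gata3 (37), and in 29.8% of all windows. The E-box word CANNTG, of the kind bound by TAL1 with its partners, occurred in 6 of 9 and in 72.3% of all windows. A match describes the letters and is not evidence of binding.

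**Figure D1:**
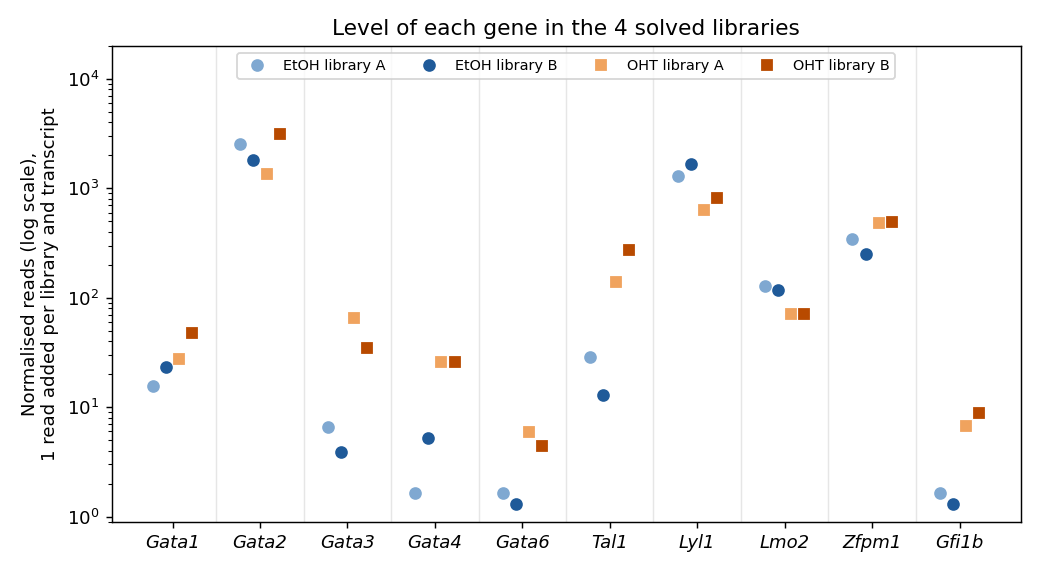
Normalised reads of each of the 10 genes (x axis) in the 4 libraries on a log scale, with 1 read added per library and transcript. Circles are EtOH libraries and squares OHT libraries. For Tal1, Gata3 and Gata4 both squares lie above both circles, for Lyl1 and Lmo2 below, and for Gata2 the squares lie on either side of the circles.

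Among the GATA genes, Gata3 and Gata4 rose from a few reads. Gata3 (NM_008091) had 7 and 2 reads in EtOH libraries A and B and 76 and 30 in OHT libraries A and B, or 5.80, 2.60, 63.8 and 33.5 normalised reads. Both OHT libraries were higher, library A 1.91-fold above library B. In the authors' deposited table its mean rose 9.42-fold, from 5.27 to 49.6. The read ratio was 11.1 (5.65 to 25.04), and limma-voom gave 3.36 ± 0.68 (SE). Gata3 made up 0.229% and 0.144% of the joint reads of Gata2 and Gata3 with EtOH, and 4.55% and 1.06% with OHT. In the annotation at hand Gata3 exons overlap those of 9230102O04Rik on the same strand by up to 77 bases and an antisense gene by up to 93. The kit keeps no strand information, so some reads may not be its own.

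Gata4 (NM_008092) had 1 and 3 reads with EtOH and 30 and 22 with OHT. The OHT libraries were nearly level, at 25.2 and 24.6 normalised reads. The mean rose 7.53-fold in the authors' deposited table, from 3.43 to 25.9, where 1 read is added to each library. The ratio of reads without that addition was 12.3 (4.53 to 46.8). The log2 ratio of the means, 2.91, was 3.96 without EtOH library B and 2.31 without EtOH library A. Gata6 (NM_010258), the close relative of Gata4, had 1 EtOH read and 9 OHT reads, whose ratio was 8.51 with an interval of 1.18 to 373. It was not called, and its level was too low for a comparison at this depth. Gata5, a GATA gene outside the 10, stood at 2.55 with EtOH and 4.61 with OHT in the authors' deposited table.

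Gata1 (NM_008089), the factor of red cell and platelet precursors, had 14.9 and 22.1 normalised reads with EtOH and 26.9 and 46.9 with OHT. The groups did not overlap, but the upper EtOH and lower OHT values were close. The authors' deposited table lists 19.6 and 37.9 and does not call it. Its read ratio was 2.0 (1.32 to 3.08), and limma-voom gave 0.95 ± 0.50 (SE).

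Gata2 (NM_008090), the GATA factor of stem, progenitor and mast cells, had by far the most reads of the family and nearly equal group means. The authors' deposited table lists it at 2169 and 2229.8. It held 99.1% and 98.4% of all GATA family reads in EtOH libraries A and B, and 91.6% and 96.5% in OHT libraries A and B. Those near-equal means came from unequal libraries: Gata2 had 2528 and 1809 normalised reads with EtOH and 1339.6 and 3118 with OHT. OHT library B was the highest of the 4 and OHT library A the lowest. The log2 ratio of the means, 0.04, was -0.69 with OHT library A alone and 0.52 with OHT library B alone, and limma-voom gave -0.07 ± 0.35 (SE). Equal means therefore do not show that Gata2 was unchanged.

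Few strongly expressed genes had an OHT gap like the 2.33-fold one of Gata2. Of 1365 symbols with an OHT mean of at least 1000, 4 had a gap as wide (0.293%), and the median gap was 1.14-fold. The other 3 were F2r, the thrombin receptor, Itga2b, the platelet integrin chain CD41, and Lama5, a laminin chain, and all were higher in OHT library B. Itga2b had 1169 and 616 normalised reads with EtOH and 628 and 1838 with OHT, the same order of libraries within each group as Gata2. Tal1 shared that order, and its 1.99-fold OHT gap was matched by 2.10% of 7415 symbols with an OHT mean of at least 100. The EtOH gap of Gata2 was less rare. At 1.40-fold, it was matched by 18.4% of 1487 symbols with an EtOH mean of at least 1000, whose median gap was 1.20-fold. These comparisons are between single libraries and use no difference between treatments.

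The same order was counted in lists of genes linked to GATA factors. An EtOH library A at least 25% above B, with OHT library B at least 25% above A, was found for 1016 of 11072 symbols (9.18%). It was found for 6 of 15 mast cell, basophil and progenitor genes (40.0%) and for 5 of 15 erythroid and megakaryocyte genes (33.3%). The T and innate lymphoid list had it for 3 of 8 genes (37.5%) and the heart and endoderm list for 2 of 8 (25%). Il1rl1, the IL-33 receptor of mast cells, had 324 and 117 normalised reads with EtOH and 307 and 1166 with OHT. Tpsb2, a mast cell tryptase, had 25.7, 3.91, 61.3 and 298. Other genes of the mast cell, basophil and progenitor list lacked this order. Epx had 322 and 641 normalised reads with EtOH and 168 and 123 with OHT. Prg2 had 775 and 1207 with EtOH and 535 and 634 with OHT. Cpa3 had 1943 and 1812 with EtOH and 1305 and 2562 with OHT. Over 5 measured mast cell markers the summed level was 1986 and 1823 with EtOH and 1398 and 2926 with OHT, most of it from Cpa3. Whether a varying number of mast-like cells has a part in the Gata2 values was not tested. Of the partner genes of the complexes 2 of 20 (10%) had this order, a share near that of all symbols.

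**Figure D2:**
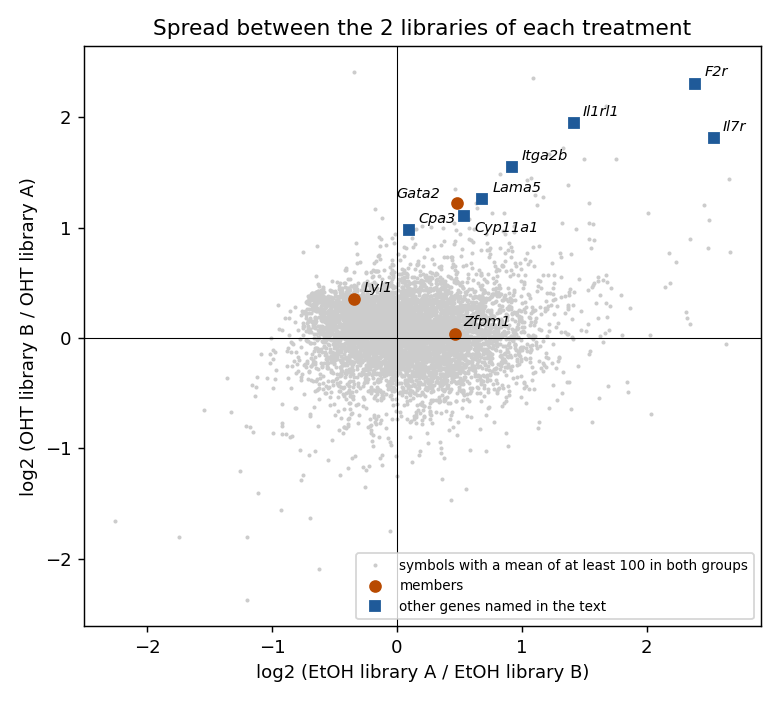
Log2 ratio of the 2 EtOH libraries (A over B, x axis) against that of the 2 OHT libraries (B over A, y axis) for symbols with a mean of at least 100 in both groups. Gata2 lies in the upper right beside Itga2b, Lama5 and Cyp11a1, while Lyl1 and Zfpm1 lie within the cloud of all symbols.

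By the rule for likeness, the 3 genes closest to Gata2 over the 4 libraries were Tmem251, Oaf and Camkmt, with root mean square differences of 0.0820, 0.142 and 0.143 in centred log2 levels. Those closest to Gata3 were Entpd3 (0.0765), Mmp13 (0.0872) and Pld2 (0.104). Mmp13, a collagenase, had 20.7 and 13.0 normalised reads with EtOH and 218 and 130 with OHT. Those closest to Gata4 were Arhgef17 (0.108), Lynx1 (0.163) and Kcnab3 (0.311). The choice was made among 8266 symbols, and 4 libraries leave many genes nearly tied.

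Lmo2, the bridge between TAL1 and GATA factors, was measured on 2 transcripts with different behaviour. NM_001142336 had 120 and 70 reads with EtOH and 41 and 44 with OHT, and NM_008505 had 33 and 18 with EtOH and 42 and 17 with OHT. Summed, Lmo2 had 127 and 115 normalised reads with EtOH and 69.7 and 68.1 with OHT, and the groups did not overlap. The authors' deposited table lists NM_001142336 at 96.4 and 42.8 (log2 fold change -1.17) and NM_008505 at 26.5 and 28.1, and calls neither. The ratio of summed reads was 0.565 (0.457 to 0.698), and limma-voom gave -0.81 ± 0.31 (SE). NM_001142336 held 78.4% and 79.5% of Lmo2 reads in EtOH libraries A and B. It held 49.4% in OHT library A (exact 95% interval 38.2 to 60.6%) and 72.1% in OHT library B (59.2 to 82.9%). Only OHT library A was clearly lower, so the change in share rests on 1 library. In the GRCm38 annotation the transcripts start 12228 bases apart and share 93.9% and 84.2% of their exonic bases, so reads from the shared part may be lost or split between them.

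**Figure D3:**
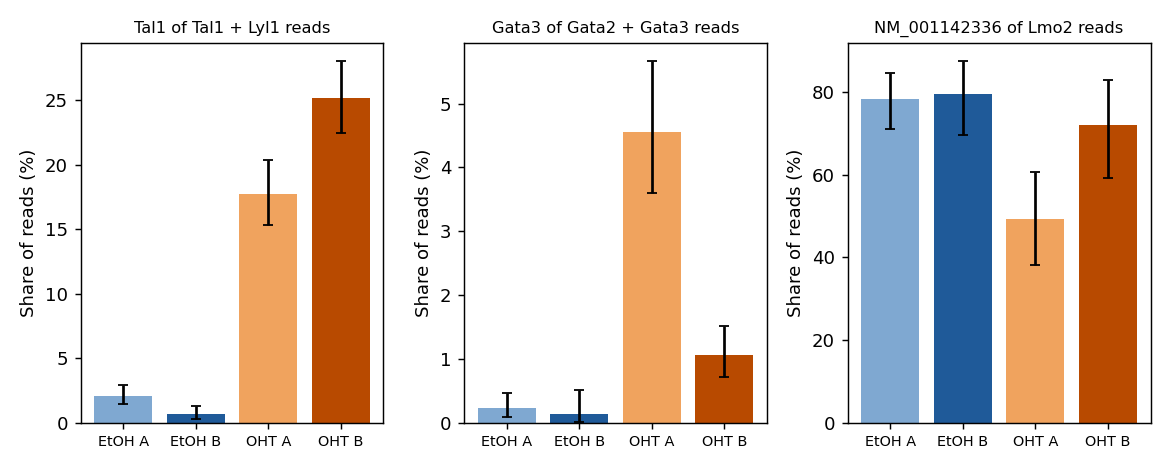
Share of reads within each library, in percent, with exact 95% intervals as bars: Tal1 of Tal1 plus Lyl1, Gata3 of Gata2 plus Gata3, and transcript NM_001142336 of all Lmo2 reads. The Tal1 share is below 3% in both EtOH libraries and above 17% in both OHT libraries, and the Gata3 share is largest in OHT library A.

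Zfpm1 (NM_009569), the FOG1 cofactor gene, had 341 and 247 normalised reads with EtOH and 481 and 495 with OHT. Both OHT values were higher and nearly equal. Its means were 295 and 489 in the authors' deposited table, which does not call it, and limma-voom gave 0.72 ± 0.24 (SE). Limma-voom called Zfpm1 higher only without EtOH library A. Gfi1b (NM_001160406) had 1 and 0 reads with EtOH and 7 in each OHT library, a ratio of 13.2 with an interval of 2.02 to 560. Gfi1, its relative in myeloid cells, went the other way, with 68.8 and 46.9 normalised reads with EtOH and 16.8 and 7.81 with OHT on its main transcript. The authors' deposited table gives Gfi1 a 4.44-fold fall (adjusted p = 0.00786), and limma-voom called it too, except without OHT library B. Gfi1b made up 1 of 107 and 0 of 54 reads of the pair with EtOH, and 7 of 33 and 7 of 18 with OHT. The count of 0 allows a share of up to 6.60% by the exact interval.

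Across the 10 genes, 3 transcripts were called higher (Tal1, Gata3 and Gata4) and 1 lower (Lyl1) in the authors' deposited table, where a call is an adjusted p under 0.05. Over all transcripts 3.62% were called higher and 1.85% lower, or 5.48% in either direction. The rule compared these same means, so nothing is read from the difference. Both OHT libraries lay above both EtOH libraries for 7 of the 10 genes and below for 2, as they did for 27.2% and 25.5% of all symbols. The median log2 ratio of the 10 genes was 1.38, beside 0.03 over all symbols. Limma-voom, which called 9.72% of 11338 transcripts higher and 5.49% lower, called the same 3 genes higher. It called Lyl1 and Lmo2 NM_001142336 lower. Tal1 was called in all 4 omissions of 1 library and Lyl1 in 3, but not without OHT library A. Lmo2 NM_001142336 was called in no omission, nor with total-read scaling, and Lmo2 was not called on summed reads. Gata3 and Gata4 were called without either EtOH library and fell below the read minimum without either OHT library. Gata6 and Gfi1b were under the read minimum, so 8 of the 10 genes were fitted with it. With no read minimum limma-voom called Gfi1b higher (2.97 ± 0.91, SE) and did not call Gata6 (2.35 ± 0.95, SE), each on 1 EtOH read.

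**Figure D4:**
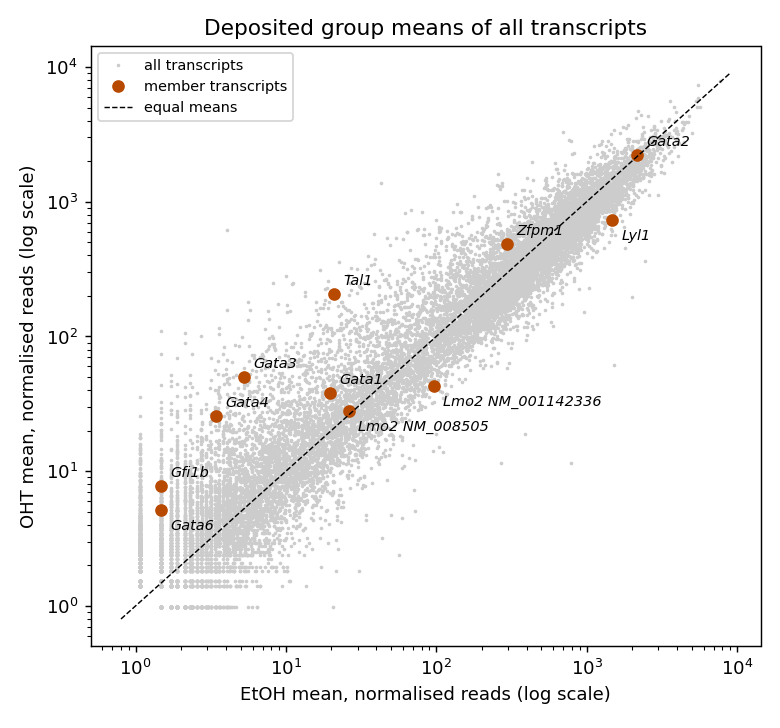
Deposited EtOH mean (x axis) against OHT mean (y axis) for 18061 transcripts on log scales, with the 11 transcripts of the 10 genes marked and a dashed line of equal means. Tal1, Gata3 and Gata4 lie far above the line at low to middling EtOH means, Gata2 lies on it, and Lyl1 below it.

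Levels of different genes were compared per kilobase of transcript, as mean normalised reads. With EtOH, Lyl1 stood first at 824 per kb and Gata2 next at 607, followed by Zfpm1 (87.1), Lmo2 (78.6), Gata1 (10.3), Tal1 (4.99), Gata3 (1.64), Gata4 (1.02), Gfi1b (0.812) and Gata6 (0.458). The libraries of neighbours in this order overlapped for Zfpm1 and Lmo2 and for all neighbours from Gata3 down. With OHT, Gata2 stood at 624 per kb and Lyl1 at 405, but their libraries overlapped, so their order is not settled. Tal1, at 49.2 per kb, now stood just above Lmo2 (44.4), with overlapping libraries. Gata1 (19.9) and Gata3 (15.4) overlapped too. Lmo2 may be understated because its transcripts share exons.

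Calls among the partners of these factors are given beside the share over all symbols. Of 30 listed complex partners, co-binding factors and inhibitors, 26 were measured, and in the authors' deposited table none was called higher (1 at an unadjusted p under 0.05) and 1, Gfi1, lower. All symbols, each by its transcript with the highest mean, were called higher in 3.94% and lower in 2.02% of cases. On the log2 scale the list's median change was 0.01, beside 0.04 over all symbols. The ETS factors Fli1 and Erg, which bind with these complexes in stem cells, stood at 733 and 497 with EtOH and at 811 and 362 with OHT in the authors' deposited table. The bridging protein gene Ldb1 had means of 55.1 and 46.4 there. Limma-voom called 2 inhibitors of basic helix-loop-helix factors higher, Id2 and Id3. In the authors' deposited table Id2 had means of 295 and 632 and Id3 of 5.51 and 43.8, neither called. Runx1 and Tcf3 are not analysed here.

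Among 22 measured erythroid and megakaryocyte genes, classic targets of GATA1 and TAL1, 2 were called higher and none lower in the authors' deposited table. Over all symbols 3.94% were called higher and 2.02% lower. At an unadjusted p under 0.05 none of the list was lower. Pf4, a platelet chemokine, rose 5.69-fold from 41.5 to 236 (adjusted p = 9.53e-08). Epor, the erythropoietin receptor, rose 9.32-fold from 7.22 to 67.3 (adjusted p = 0.00631), both in the authors' deposited table. Limma-voom called 6 higher, adding Hbb-bh1, Itgb3, Gp9 and Vwf, but 3 when EtOH library B was left out and 2 when OHT library B was. It called none lower. Of this list 15 genes passed the read minimum, and over all fitted transcripts 9.72% were called higher and 5.49% lower. On the log2 scale the list had a median change of 0.54. Log2 fold changes were positive for 18 genes of the list and negative for 4. Klf1, the erythroid factor, stood at 12.1 with EtOH and 9.23 with OHT in the authors' deposited table. Nfe2 had means of 1855 and 1363 there and Cpox of 260 and 201, neither called. The 3 measured erythroid markers summed to 17.4 and 16.9 normalised reads with EtOH, with 1 of them at 0. Of that, Klf1 held 11.6 and 10.4 and Epor 5.80 and 6.51. With OHT the markers summed to 58.8 and 91.5, of which Epor held 47.9 and 84.8 and Klf1 10.9 and 5.58. The part of these markers in the values of Gata1 and Tal1 was not tested.

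Of 19 measured mast cell, basophil and progenitor genes, targets of GATA2, 1 was called higher and 1 lower in the authors' deposited table. The shares over all symbols were 3.94% higher and 2.02% lower. Procr, the protein C receptor, rose 4.17-fold from 43.1 to 179.9 (adjusted p = 0.000176), and Gfi1 is the call in the other direction. On the log2 scale the list had a median change of 0.76. With all libraries limma-voom called 1 of them higher, Procr, and 2 lower, Epx and Gfi1. In the authors' deposited table Epx had means of 482 and 146 and Prg2 of 992 and 586, neither called. Log2 fold changes were positive for 15 genes of the list and negative for 4. Cpa3, a mast cell protease, stood at 1879 with EtOH and 1935 with OHT in the authors' deposited table.

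Of 18 measured T cell and innate lymphoid genes, the setting of GATA3, 2 were called higher and none lower in the authors' deposited table. None was lower at an unadjusted p under 0.05 or by limma-voom. The shares called over all symbols were 3.94% higher and 2.02% lower. Thy1, a surface glycoprotein, rose 16.0-fold from 22.4 to 358 (adjusted p = 0.0142), and Tcf7, a T cell factor, rose 4.08-fold from 28.3 to 116 (adjusted p = 0.00483), both in the authors' deposited table. On the log2 scale the list had a median change of 0.91. Of the T cell receptor complex, Cd3g had 1 read in all, and Cd247 had 0 with EtOH and 5 with OHT. Summed over 6 measured T cell markers, the level was 4.98 and 3.91 normalised reads with EtOH and 15.1 and 7.81 with OHT, with 3 markers at 0 with EtOH and 1 with OHT. Their part in the Gata3 value was not tested.

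Of 19 measured heart and endoderm genes, the setting of GATA4 and GATA6, 1 was called higher and none lower in the authors' deposited table. None was lower at an unadjusted p under 0.05 or by limma-voom. The shares called over all symbols were 3.94% higher and 2.02% lower. Dab2, an endocytic adaptor made in endoderm and macrophages, rose 4.01-fold from 53.5 to 214 (adjusted p = 0.00485). On the log2 scale the list had a median change of 0.39. The heart factors Hand2 and Isl1 had at most 4 reads in a group. The 8 measured markers of stroma and endothelium, of which 2 were at 0 in each group, summed to 50.6 and 54.7 normalised reads with EtOH and 68.9 and 67.0 with OHT, and their part in the Gata4 value was not tested.

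**Figure D5:**
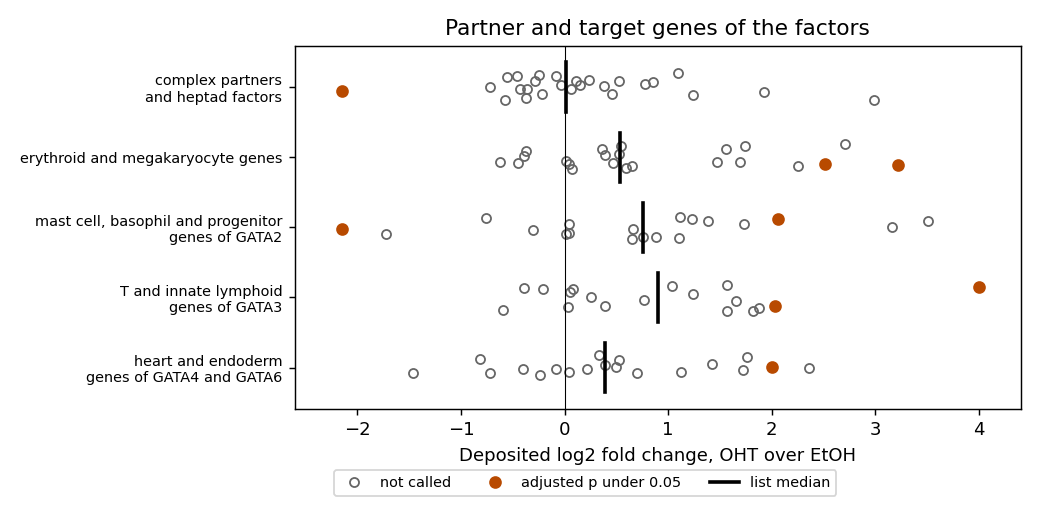
Deposited log2 fold change, OHT over EtOH (x axis), of each measured gene in 5 lists of partners and targets. Filled points passed an adjusted p of 0.05, and bars are list medians, from 0.01 for complex partners to 0.91 for T and innate lymphoid genes.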

How the data were processed

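RNA-seq of 4 samples was deposited as 1 table comparing OHT with EtOH, with no values per sample. TopHat, DESeq and mm9 are named, without roles, in the submitters' processing notes. The counting program is not given in the sources used here. Per the file headers, the deposited signal columns are base means of each group, the ratio column is their quotient, the log2 column its logarithm, and the p-value columns hold a p and an adjusted p per transcript by the authors. 

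Deposited means were solved as whole reads plus 1 over a size factor, summed over 2 libraries and halved. Size factors were 1.21 and 0.768 for EtOH and 1.19 and 0.896 for OHT. The solution was unique for 100% of transcripts. Limma-voom (limma 3.58.1, R 4.3.3) was fitted by group to transcripts with at least 10 reads in 2 libraries. It used Benjamini-Hochberg adjustment and left 2 residual degrees of freedom. A run on simulated reads gave every transcript the same dispersion, so it does not test genes with a wide gap between libraries. Estimates quoted per gene use reads summed over transcripts. Intervals are exact binomial. Lengths and exon overlaps come from GENCODE vM21 on GRCm38. Calls are an adjusted p under 0.05.

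Members and lists were chosen with earlier results of these data known. From each list the text names up to 4 called genes, or the 2 with the highest mean, and for Gata2, Gata3 and Gata4 the 3 most alike symbols with a mean of at least 50. Other named genes were chosen after their values were seen. Scaling, read minimum, threshold, transcript choice and each library were varied. Some listed genes are not reported here by name.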

Additional observations from a re-analysis of the deposited data

How the results depend on the processing

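No paired analysis was possible because the group means carry no replicate numbers and the solved libraries cannot be matched to those of the labels. Counts of calls depended on the test and on single libraries. Over all transcripts, 654 higher and 335 lower calls became 432 and 163 at an adjusted p under 0.01. They became 1102 and 623 with limma-voom, 1646 and 800 with no read minimum, 1191 and 607 with trimmed-mean scaling, and 1168 higher with total-read scaling. Leaving out 1 library gave 533 to 1717 higher and 112 to 1112 lower (665 without EtOH library B). For the 10 genes, 3 higher and 1 lower became 0 and 0 at an adjusted p under 0.01. Limma-voom called 2 transcripts lower, also with no read minimum, where 4 were higher with Gfi1b added, and with trimmed-mean scaling. Leaving out 1 library gave 1 to 4 higher and 0 to 1 lower. Zfpm1 was added without EtOH library A, and Gata3 and Gata4 need both OHT libraries to reach the read minimum.

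Of the partner list, 0 higher became 2 with limma-voom, per transcript or summed, and 0 to 2 without 1 library, with 0 to 2 lower. Erythroid and megakaryocyte calls went from 2 to 6 higher with both forms of limma-voom, and 2 to 6 without 1 library. Mast cell, basophil and progenitor calls were 1 to 7 higher and 1 to 3 lower without 1 library, and 2 lower with both forms of limma-voom. T and innate lymphoid calls were 2 to 4 higher without 1 library. Heart and endoderm calls were 2 higher with both forms and 1 to 3 without 1 library.

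The log2 ratios kept their sign in 59 of 61 alternatives, and both exceptions were Gata2, which ran from -0.69 to 0.52 without 1 library. Without 1 library, Gata4 ran from 2.31 to 3.96, Lmo2 from -0.86 to -0.73 and Zfpm1 from 0.52 to 0.98. Lmo2 was -1.17 on its main transcript alone. Without the added read, Gata6 was 3.34 and Gfi1b 4.05, both on 1 EtOH read. Where no cause is named, the cause was not tested. Depth limits Gata6, Gfi1b and the EtOH levels of Gata3 and Gata4, which rest on 1 to 9 reads.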

Other observations

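Some partner, cytokine and protease genes differed widely between libraries of 1 group. Id3, an inhibitor of E proteins, had 4.98 and 3.91 normalised reads with EtOH and 65.5 and 20.1 in OHT libraries A and B, with OHT library A the higher one as for Gata3, while OHT library B was the higher one for Gata2 and Tal1. Il4, a cytokine of type 2 lymphoid cells, mast cells and basophils, had 1 read in OHT library A and 32 in OHT library B on its main transcript. Mcpt8, a basophil protease, had 96.2 and 93.8 normalised reads with EtOH and 85.7 and 325 with OHT. Il7r, the IL-7 receptor, had 257, 44.3, 198 and 697. Lmo1, a relative of Lmo2, had 7.46 and 29.9 normalised reads with EtOH and 34.4 and 31.3 with OHT. The differences between libraries of 1 group were not tested.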
